A study of Homo sapiens with 12 samples.

Results

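In ARPE-19 cells, 13 genes had reads in every library of the line that expressed the reprogramming factors OSK and next to none in the other lines. They were chosen from raw read counts. A gene was taken when it had at least 10 reads in each of the 3 OSK libraries, at most 3 reads in each of the 9 other libraries, and a symbol that neither starts with LINC nor ends in -AS1. Of 60605 lines in the table, 37054 met the condition on names and 13 met all conditions. They were the protein-coding genes GPR1, MS4A2, CRNN, PIK3C2G, RAET1L, SCEL, BTLA and PDC, the pseudogenes POU5F1P4, FOLR1P1 and THAP12P8, the long non-coding RNA SIRLNT and the microRNA gene MIR3194. Because the counts themselves chose these genes, their difference between OSK and the other groups is a description and is not tested. With the same limits, 0 genes had reads in WT alone, 0 in GFP alone and 0 in GSTA4 alone. With the limits turned round, CCND2, a D-type cyclin, was the gene missing from OSK alone, with 1, 1 and 3 reads there against 24 to 69 elsewhere, and OLR1, a receptor for oxidised lipoprotein, was the gene missing from GSTA4 alone.

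ARPE-19 is a human cell line, long in culture, that derives from the retinal pigment epithelium, the pigmented layer behind the photoreceptors. The 4 groups of 3 libraries were WT, for which the labels name no open reading frame, and 3 stable lines carrying GFP, the glutathione transferase GSTA4, or OSK, read here as POU5F1 (OCT4), SOX2 and KLF4, each collected after 4 days of expression. Neither a promoter, nor a dose, nor the number of clones per line is given, so an effect of the factors cannot be told apart from any other difference between lines. Separate cultures are not stated for the 3 libraries of a group either, and p-values measure the spread between these libraries, which may be technical.

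POU5F1 and SOX2 are transcription factors of pluripotent cells, where they bind neighbouring sites on DNA, and KLF4 is a zinc-finger factor that also acts in the outer layers of stratified epithelium. Introduced together they can open genes that are silent in a differentiated cell. The 13 genes are known mainly from other tissues. MS4A2 and BTLA belong to mast cells and lymphocytes, CRNN and SCEL to stratified epithelium, PDC to photoreceptors, and RAET1L to cells under stress or transformation.

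The libraries held 12630675 to 17045454 reads, and 3 reads corresponded to 0.177 to 0.228 CPM, the reads of a gene scaled to a common library size. Reads of POU5F1 numbered 11385, 12068 and 10850 in OSK and 0 to 5 elsewhere. SOX2 had 8890, 9836 and 8944 reads in OSK and 0 to 5 elsewhere, and KLF4 had 13333, 14575 and 12963 in OSK and 4 to 42 elsewhere, so the 3 factors stood in the libraries that their labels name. RPE65, the isomerase of the visual cycle, had 0 to 10 reads in any library, while MITF, a transcription factor of pigment cells, had group means of 146 to 250 CPM. GFP replicate 1 stood apart, although it had the fewest reads: 27349 named genes had at least 1 read there, against 19488 to 22073 in the other libraries. Comparisons of other genes used the quasi-likelihood test of edgeR on 15179 genes, with adjusted p under 0.05 as a call. Of all genes tested, 23.1% were called higher and 22.8% lower in OSK against GFP, 22.7% and 22.7% against WT, and 24.1% and 23.8% against GSTA4. Higher genes made up 50.4%, 50.1% and 50.3% of the calls against GFP, WT and GSTA4, but 39.8%, 41.1% and 42.5% when libraries were scaled by their totals alone. Of the 13 genes, 12 passed the filter on low counts and all 12 were called higher in each comparison, which the choice of genes fixed in advance. PDC did not pass the filter.

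Over the 3 OSK libraries the 13 genes together had 600, 680 and 706 reads. In the 9 other libraries together they had 65 in all, of which 20 lay in GFP replicate 1. That library had reads on 11 of the 13 genes, and the other 8 libraries outside OSK had reads on 2 to 7. Only MIR3194 had 0 reads in all 9. Reads summed over OSK ran from 39 for PDC to 624 for GPR1, with a median of 94. In CPM over all 9 other libraries together, the ratio of OSK to the rest ran from 16.7 for PDC (95% exact interval for counting error 7.38 to 44.2) to 170 for GPR1 (94.4 to 342). For MIR3194 it was at least 42.0-fold higher, set against a floor of 3 reads over the 9 libraries. The read limits made these ratios high in advance, so the intervals cover counting error and test no difference. These are bulk libraries, in which a few cells with much RNA of a gene and many cells with little cannot be told apart.

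**Figure D1:**
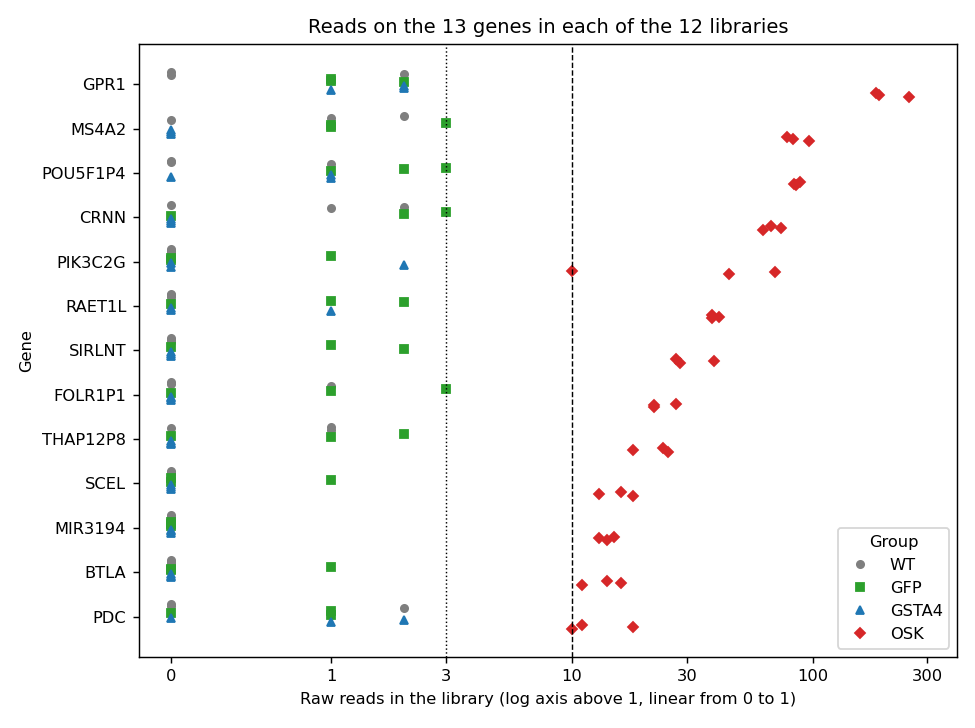
Raw reads on each of the 13 genes (rows) in each of the 12 libraries (points), on a log axis above 1 read. The dotted line marks 3 reads and the dashed line 10 reads, the limits that chose the genes, so the gap between them is set by the rule, and PIK3C2G shows the widest spread among the OSK points, from 10 to 70 reads.

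GPR1, also called CMKLR2, is a receptor for chemerin, a secreted protein that attracts immune cells and acts on fat tissue. It had 184, 189 and 251 reads in OSK. In WT it had 0, 2 and 0 reads, in GFP 1, 1 and 2, and in GSTA4 2, 2 and 1. It was the most abundant of the 13 in reads, at 14.2 CPM ± 3.01 (SD, n = 3) in OSK, where 43.1% of tested genes lay below it. The gene lies at chr2:206175316-206218047 on the minus strand (GRCh38) and overlaps GPR1-AS on the opposite strand without shared exon bases. Chemerin itself, encoded by RARRES2, was abundant in every group, with 980 CPM ± 76.9 in OSK, 1350 ± 583 in WT, 649 ± 29.1 in GFP and 439 ± 30.5 in GSTA4 (SD, n = 3). The ligand was higher in OSK than in GFP (log2 fold change 0.59, SE 0.168, adjusted p 0.00654) and than in GSTA4 (1.16, SE 0.17, adjusted p 9.01e-06), but lower than in WT (-0.46, SE 0.167, adjusted p 0.0294). Its WT libraries were uneven, with 32508, 14104 and 16783 reads. The other chemerin receptors were close to absent: CMKLR1 had 1 read and CCRL2 1 read over the 3 OSK libraries.

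MS4A2 encodes the beta chain of the high-affinity IgE receptor, a membrane protein that in mast cells and basophils amplifies the signal of the alpha and gamma chains. Its reads were 78, 83 and 97 in OSK, 2, 1 and 0 in WT, 3, 1 and 1 in GFP and 0 in each GSTA4 library. The mean in OSK was 5.88 CPM ± 0.834 (SD, n = 3). The alpha chain gene FCER1A had 0 reads in all 12 libraries, and the gamma chain gene FCER1G had 2, 0 and 0 reads in OSK and 0 to 6 elsewhere, so only the beta chain of the 3 had more than a few reads. Of 14 other genes of the receptor and its proximal signalling, 7 were tested, and 1 was higher and 2 lower in OSK against GFP. Beside these counts stand 23.1% higher and 22.8% lower among all genes tested. LYN, the kinase that phosphorylates the receptor, was higher against GFP (27.6 CPM ± 2.93 against 18.6 ± 0.511, log2 fold change 0.57, SE 0.103, adjusted p 0.000121) and against WT (0.59, SE 0.103, adjusted p 7.18e-05), and was not called against GSTA4 (0.19, SE 0.101, adjusted p 0.13). PLCG2, a phospholipase downstream of it, was lower against all 3 groups, at -1.35 on the log2 scale in the case of GFP (SE 0.155, adjusted p 4.09e-07). SYK, LCP2 and BTK had 0 reads in OSK. All 17 other members of the MS4A family had fewer than 10 reads in each library, and 15 of them had 0 in OSK.

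For MS4A2, which lies at chr11:60088261-60098466 on the plus strand, the 250 bases before the RefSeq start, which lie inside the GENCODE interval of the gene, are shown because they hold a TATA box close to it, in capitals, beginning 29 bases before the start (chr11:60088414-60088663, GRCh38.p14, plus strand).
MS4A2: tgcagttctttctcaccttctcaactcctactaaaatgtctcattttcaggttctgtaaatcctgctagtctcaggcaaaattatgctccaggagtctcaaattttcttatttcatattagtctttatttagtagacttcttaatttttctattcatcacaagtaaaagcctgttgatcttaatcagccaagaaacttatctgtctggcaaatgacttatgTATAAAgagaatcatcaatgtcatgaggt

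Of 19 other mast cell markers, 14 had 0 reads in OSK, among them the proteases CPA3, TPSAB1 and TPSB2 and the receptor chain FCER1A. Their summed level was 3.55 to 4.7 CPM in OSK, 2.01 to 4.48 in WT, 2.79 to 8.52 in GFP and 2.89 to 4.89 in GSTA4, so the ranges overlapped. KIT, the stem cell factor receptor of mast cells, had 11, 8 and 20 reads in OSK and 3, 2 and 2 in GFP. It was called higher against GFP (log2 fold change 2.35, SE 0.783, adjusted p 0.0183) and WT (2.16, SE 0.746, adjusted p 0.0223), but not against GSTA4 (0.54, SE 0.63, adjusted p 0.515). The call against GFP was lost without GFP replicate 2 (adjusted p 0.0633), without GFP replicate 3 (0.0622) or without OSK replicate 3 (0.108). KIT passed the filter on low counts only with its OSK libraries, so its calls are no result about the list.

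RAET1L (ULBP6) encodes a ligand of NKG2D, an activating receptor of natural killer cells. It had 38, 41 and 38 reads in OSK, 0 in each WT library, 1, 2 and 0 in GFP and 0, 0 and 1 in GSTA4, and its OSK libraries agreed within 1.04-fold in CPM. It lies at chr6:150018334-150025532 on the minus strand. Its transcript was 95.3% identical to that of ULBP2, another NKG2D ligand, and 30.9% of its 50-base windows occurred unchanged in ULBP2. The starts of both coding sequences are shown to make the likeness visible, with capitals in RAET1L at bases that differ in the alignment (GENCODE 29).
ULBP2: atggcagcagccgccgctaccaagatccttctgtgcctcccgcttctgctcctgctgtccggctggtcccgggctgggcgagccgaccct
RAET1L: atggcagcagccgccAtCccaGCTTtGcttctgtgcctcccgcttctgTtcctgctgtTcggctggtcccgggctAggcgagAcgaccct

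ULBP2 had 142, 98 and 131 reads in OSK and 1 to 12 elsewhere, so RAET1L had 26.8 to 41.8 reads for each 100 of ULBP2. How reads that match both genes were assigned is not given in the sources used here, and their part in the RAET1L counts was not tested. Of 7 other NKG2D ligand genes, 4 were tested and all 4 were higher in OSK against GFP, 3 of them against each other group. Among all genes tested, 23.1% were higher against GFP, 22.7% against WT and 24.1% against GSTA4. ULBP2 and RAET1G passed the filter on low counts only with their OSK libraries, so their calls are no result about the list. That leaves MICA and ULBP3. ULBP2 had 0.243 CPM ± 0.154 in GFP and 8.51 ± 2.04 in OSK (log2 fold change 5.1, a description only). ULBP3 rose from 3.38 CPM ± 0.491 in GFP to 16.0 ± 1.65 in OSK (2.24, SE 0.192, adjusted p 5.89e-09). MICA, the ligand with the highest level, rose from 38.6 CPM ± 3.54 to 52.4 ± 2.21 (0.44, SE 0.0804, adjusted p 0.000146). RAET1G had 5, 3 and 4 reads in GFP and 8, 15 and 13 in OSK (1.47, SE 0.571, adjusted p 0.0401). Its call was lost against WT (adjusted p 0.112) and GSTA4 (0.669), with library totals alone (0.0523), with DESeq2 (0.0675), with the replicate block (0.0546), with no filter on low counts (0.121), and without any 1 of WT replicate 2, GFP replicates 2 and 3, GSTA4 replicates 1 and 2, and OSK replicates 2 and 3, with adjusted p up to 0.126 among these libraries, so it held in 6 of 19 alternatives. MICB, ULBP1 and RAET1E had 0 to 3 reads in each OSK library.

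BTLA, an inhibitory receptor of lymphocytes, had 14, 16 and 11 reads in OSK and 1 read elsewhere, in GFP replicate 1. Its OSK mean was 0.928 CPM ± 0.133 (SD, n = 3), and the gene lies at chr3:112463968-112499561 on the minus strand. TNFRSF14, the membrane protein that BTLA binds, was lower in OSK at 44.6 CPM ± 3.65 against 83.1 ± 12.4 in GFP (log2 fold change -0.9, SE 0.137, adjusted p 1.82e-05), and also against WT (-0.36, SE 0.139, adjusted p 0.0407) and GSTA4 (-0.72, SE 0.138, adjusted p 0.000204). PTPN6, a phosphatase that such receptors recruit, fell by 0.48 on the log2 scale against GFP (SE 0.107, adjusted p 0.000972). Of 6 other genes in this group, 4 were tested, and 0 were higher and 2 lower against GFP, beside 23.1% and 22.8% of all genes. The blood marker PTPRC, which lymphocytes carry, had 0 reads in OSK, as did SPI1 and TAL1. RUNX1, a blood transcription factor, was higher than in GFP (31.7 CPM against 17.9, log2 fold change 0.82, SE 0.139, adjusted p 5.78e-05), the 1 call among 15 blood genes, of which 2 were tested.

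CRNN encodes cornulin, a member of the S100-fused proteins that surround keratin filaments in the upper layers of squamous epithelium. It had 67, 74 and 62 reads in OSK, 0, 2 and 1 in WT, 3, 2 and 0 in GFP and 0 in each GSTA4 library, with 4.6 CPM ± 0.214 (SD, n = 3) in OSK. The gene lies at chr1:152409243-152414263 on the minus strand, inside FLG-AS1 on the opposite strand, with no shared exon bases. FLG, which encodes filaggrin, another S100-fused protein, lies 84.0 kb away. It had 998, 1244 and 1321 reads in OSK, 33, 32 and 22 in GFP, 52, 36 and 30 in WT and 109, 89 and 63 in GSTA4, so the OSK libraries did not overlap the rest. FLG was higher against each group, with log2 fold changes of 5.27 for GFP (SE 0.189, adjusted p 6.42e-15), 4.99 for WT (SE 0.18, adjusted p 6.92e-15) and 3.76 for GSTA4 (SE 0.161, adjusted p 6.51e-14). Among 6 other S100-fused genes, 2 were tested and FLG was the 1 called. HRNR was not called against GFP (-0.94, SE 0.6, adjusted p 0.213), and FLG2, RPTN, TCHH and TCHHL1 had 0 to 4 reads in each OSK library.

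SCEL encodes sciellin, a precursor of the cornified envelope, the protein shell under the membrane of terminally differentiated keratinocytes. Its reads were 16, 13 and 18 in OSK and 1 elsewhere, in GFP replicate 2, with 1.08 CPM ± 0.228 (SD, n = 3) in OSK. It lies at chr13:77535674-77645263 on the plus strand and shares 144 exon bases with SCEL-AS1 on the opposite strand. Of 19 other genes listed with the cornified envelope, 5 were tested, with 2 higher and 1 lower in OSK against GFP. Among all genes tested, 23.1% were higher and 22.8% lower. The higher ones were KRT13 and KRT16, which also stand in the squamous list given below. KRT13, a keratin of moist squamous epithelium, had 3583, 4037 and 3649 reads in OSK and 1 to 53 elsewhere, which gave log2 fold changes of 6.81 for GFP (SE 0.181, adjusted p 5.87e-17), 7.83 for WT (adjusted p 2.42e-17) and 9.5 for GSTA4 (adjusted p 1.04e-17). KRT16, a keratin of activated epidermis, had 19, 50 and 32 reads in OSK, 4 in WT replicate 1, 1 in GFP replicate 1 and 0 in the other libraries. PPL, which encodes periplakin, moved against different groups in opposite directions: lower than in GFP (-0.31, SE 0.0828, adjusted p 0.00403) and WT (-0.81), higher than in GSTA4 (0.58, SE 0.0847, adjusted p 7.74e-06). Of 23 squamous epithelium markers other than CRNN, 9 had 0 reads in OSK, among them KRT5, and KRT14 had 1. Of the 5 tested, 2 were higher and 2 lower against GFP, the higher ones being KRT13 and KRT16. KRT16 had at most 4 reads in any library outside OSK. It passed the filter on low counts through OSK alone, so its calls are no result about either list. DSC3, which encodes a desmosomal cadherin, was lower against GFP (-0.43, SE 0.0788, adjusted p 0.000139), WT (-0.56, adjusted p 4.71e-06) and GSTA4 (-0.81, adjusted p 2.35e-08). TP63, a transcription factor of basal epithelial cells, had 1, 4 and 2 reads in OSK and 19, 31 and 18 in GFP (-3.3, SE 0.557, adjusted p 5.84e-05), was also lower than in WT (-1.8, SE 0.622, adjusted p 0.0222), and was not called against GSTA4 (0.19, adjusted p 0.867). Against WT the squamous list gave 3 higher and 2 lower, and against GSTA4 3 and 1. The summed level of all 23 was 337 to 355 CPM in OSK and 87.0 to 114 in the other groups, and KRT13 alone stood at 256 CPM ± 0.9 (SD, n = 3) of that.

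The 250 bases before the starts of CRNN (chr1:152414264-152414513, minus strand) and SCEL (chr13:77535456-77535705, plus strand, both GRCh38.p14) are shown because they hold searched motifs, in capitals. In CRNN these are a TATA box beginning 30 bases before the start, and in SCEL 2 copies of the SOX motif AACAAAG, beginning 158 and 145 bases before it.
CRNN: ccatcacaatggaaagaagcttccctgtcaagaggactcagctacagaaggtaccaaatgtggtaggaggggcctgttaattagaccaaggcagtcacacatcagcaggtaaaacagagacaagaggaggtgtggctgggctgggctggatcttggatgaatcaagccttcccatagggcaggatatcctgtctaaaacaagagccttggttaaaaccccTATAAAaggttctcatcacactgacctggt
SCEL: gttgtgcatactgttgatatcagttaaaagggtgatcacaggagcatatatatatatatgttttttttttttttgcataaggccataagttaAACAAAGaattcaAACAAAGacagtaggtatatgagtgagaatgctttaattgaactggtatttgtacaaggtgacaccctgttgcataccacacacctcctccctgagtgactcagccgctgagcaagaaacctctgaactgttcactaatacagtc

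PIK3C2G encodes a class II phosphoinositide 3-kinase that is best known from liver. It was the least even of the 13, with 10, 70 and 45 reads in OSK replicates 1 to 3, a 6.23-fold range in CPM, against 1.04 to 1.62 for the other 12. Its other reads were 1 in GFP replicate 1 and 2 in GSTA4 replicate 2. With a mean of 2.77 CPM ± 1.89 (SD, n = 3), it lies at chr12:18247614-18648416 on the plus strand and spans 400803 bases. The related kinase PIK3C2A had 131 CPM in OSK and 149 in GFP (log2 fold change -0.19, SE 0.0609, adjusted p 0.0162). That call was lost without GFP replicate 1 (adjusted p 0.0779), without OSK replicate 1 (0.12), with no filter on low counts (0.086) and against GSTA4 (0.907), and PIK3C2B was not called in any of the 3 comparisons.

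PDC encodes phosducin, a photoreceptor protein that binds the beta and gamma subunits of transducin. It had 11, 18 and 10 reads in OSK, 0, 0 and 2 in WT, 1, 0 and 1 in GFP and 0, 2 and 1 in GSTA4. Its OSK mean of 0.875 CPM ± 0.232 (SD, n = 3) was the lowest of the 13. It lies at chr1:186443566-186461122 on the minus strand. Of 21 other genes of rod phototransduction and phosducin relatives, 6 had 0 reads in OSK. The 9 tested gave 2 higher and 3 lower in OSK against GFP, beside 23.1% and 22.8% of all genes tested. GNB1, the beta subunit that phosducin binds, which most cells express, was higher against GFP (509 CPM ± 20.8 against 411 ± 12.3, log2 fold change 0.31, SE 0.0543, adjusted p 8.77e-05). It was also higher against GSTA4 (0.22, SE 0.0543, adjusted p 0.00174) and not called against WT (0.07, SE 0.0542, adjusted p 0.304). The photoreceptor transcription factor gene CRX had 0, 0 and 1 reads in OSK.

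POU5F1P4 is a processed pseudogene of POU5F1, a factor that the OSK line was made to express. It had 89, 84 and 85 reads in OSK, 0, 0 and 1 in WT, 3, 2 and 1 in GFP and 1, 0 and 1 in GSTA4, with 5.88 CPM ± 0.515 (SD, n = 3) in OSK. The pseudogene lies at chr1:155433178-155434262 on the plus strand, in an intron of ASH1L on the opposite strand, and ASH1L was not called in OSK against GFP (log2 fold change 0.03, SE 0.0597, adjusted p 0.663). Its sequence was 97.1% identical to the POU5F1 transcript over its whole length, and 30.2% of its 50-base windows occurred unchanged there. The starts are shown beside each other to show how few bases separate the pair, with capitals in POU5F1P4 at bases that differ in the alignment (GENCODE 29).
POU5F1: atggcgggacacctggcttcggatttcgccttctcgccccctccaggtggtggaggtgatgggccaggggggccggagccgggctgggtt
POU5F1P4: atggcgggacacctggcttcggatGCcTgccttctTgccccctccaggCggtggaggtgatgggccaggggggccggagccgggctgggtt

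For each 100 reads on POU5F1, POU5F1P4 had 0.782, 0.696 and 0.783 in the 3 OSK libraries. POU5F1P3, another copy, had 167, 177 and 166 reads in OSK, or 1.47, 1.47 and 1.53 for each 100, and missed the limits through 8 reads in GSTA4 replicate 3. POU5F1B, a further copy, had reads in every library and rose from 2.53 CPM ± 0.591 in GFP to 11.6 ± 1.48 in OSK (log2 fold change 2.19, SE 0.258, adjusted p 6.17e-07). Reads of the expressed POU5F1 that fell on its copies and reads from the copies themselves cannot be told apart in this table.

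FOLR1P1, an unprocessed pseudogene of the folate receptor gene FOLR1, had 27, 22 and 22 reads in OSK, 1 in WT, 4 in GFP and 0 in GSTA4. It lies at chr11:72158822-72159734 on the plus strand, listed as AP000812.3 in GENCODE 29, and is 90.7% identical to FOLR1, with 3.93% of its 50-base windows unchanged there. FOLR1 itself had 4, 7 and 9 reads in OSK, fewer than the pseudogene in each library, and 21, 16 and 20 in GFP (log2 fold change -1.57, SE 0.501, adjusted p 0.0142). That call was lost without OSK replicate 1 (adjusted p 0.0773), without OSK replicate 2 (0.0527) and against WT (0.484) and GSTA4 (0.971). THAP12P8, a processed pseudogene of THAP12, had 24, 18 and 25 reads in OSK, 2 in WT, 3 in GFP and 0 in GSTA4. It lies at chr1:240769420-240771534 on the minus strand and shares 238 exon bases with the antisense gene AL365184.1. Its parent THAP12, 89.7% identical, went the other way, from 39.0 CPM ± 3.3 in GFP to 28.1 ± 0.526 in OSK (-0.47, SE 0.0824, adjusted p 8.47e-05), and was not called against GSTA4 (-0.17, SE 0.0833, adjusted p 0.11). Neither FOLR1 nor THAP12 was called higher in OSK in any of the 3 comparisons. The part of reads from these genes in the counts of their pseudogenes was not tested. SIRLNT, a long non-coding RNA, had 27, 39 and 28 reads in OSK, 3 in GFP and 0 in WT and GSTA4, and shared no 50-base window with another transcript.

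MIR3194 lies at chr20:51452905-51452977 on the minus strand, inside NFATC2 on the same strand and outside its annotated exons. It had 15, 13 and 14 reads in OSK and 0 in each of the other 9 libraries. The libraries were made from poly(A) RNA, so these are reads on the 73 bases of the hairpin gene, not a measure of mature microRNA. Its mature arms are given to identify the gene, with the seed, bases 2 to 8, in capitals (RefSeq, GRCh38.p14).
hsa-miR-3194-5p: gGCCAGCCaccaggagggcug
hsa-miR-3194-3p: aGCUCUGCugcucacuggcagu

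NFATC2 encodes a calcium-regulated transcription factor first described in T cells, and it is named here because MIR3194 lies in it, after its values had been seen. Its reads were 2762, 2483 and 2606 in OSK, 20, 7 and 16 in WT, 27, 16 and 22 in GFP and 47, 18 and 61 in GSTA4, with no overlap between OSK and the rest. NFATC2 rose from 1.56 CPM ± 0.457 in GFP to 179 ± 20 in OSK (log2 fold change 6.84, SE 0.201, adjusted p 2.78e-16), and was higher by 7.59 against WT (SE 0.213, adjusted p 1.3e-16) and 5.95 against GSTA4 (SE 0.182, adjusted p 3.79e-16). MIR3194 had 0.543, 0.524 and 0.537 reads for each 100 on NFATC2 in the 3 OSK libraries. Unspliced NFATC2 RNA and hairpin RNA cannot be told apart in these counts. The other NFAT genes did not share the size of that rise: NFAT5 was higher against GFP (0.54, SE 0.0641, adjusted p 6.01e-07), NFATC1 lower (-0.93, SE 0.167, adjusted p 0.000114), and NFATC3 and NFATC4 were not called.

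**Figure D2:**
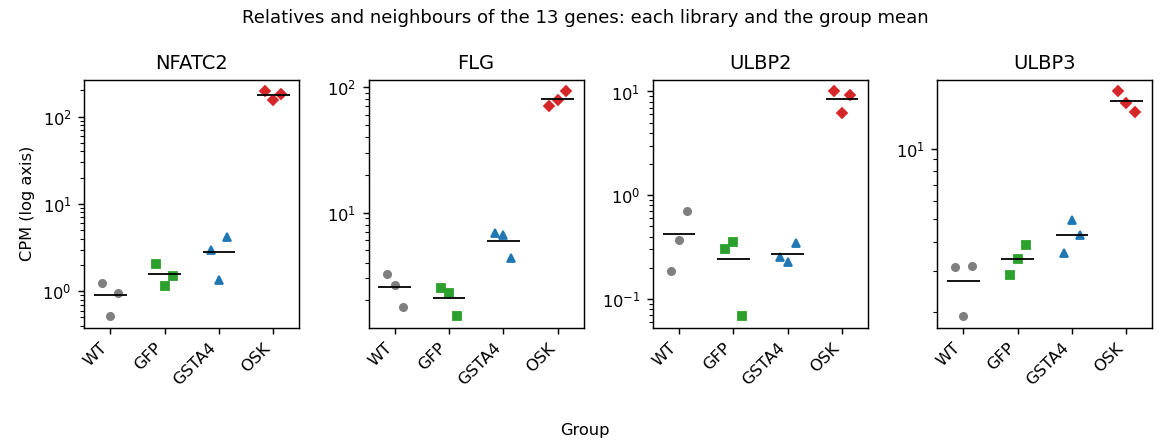
CPM (log axis, a separate scale for each panel) in each of the 12 libraries, by group, for NFATC2, FLG, ULBP2 and ULBP3, with lines at group means. The 3 OSK points lie above all other points in each panel, and NFATC2 shows the widest gap, with group means of 0.901 to 2.84 CPM outside OSK and 179 in OSK. ULBP2 passed the filter on low counts only with its OSK libraries.

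Per exon length, the order of the 13 genes changed. Levels in OSK, as CPM divided by kilobases of annotated exon, ran from 0.251 ± 0.0361 for BTLA to 13.1 ± 1.7 for MIR3194 (SD, n = 3), with a median of 1.34. The value of MIR3194 rests on an exon length of 73 bases, and the read length is not given in the sources used here, so its place in the order is uncertain. Next came POU5F1P4 at 5.42 ± 0.475 and GPR1 at 5.02 ± 1.06, whose libraries overlapped. FOLR1P1 followed at 2.66 ± 0.446 and CRNN at 2.42 ± 0.113, which overlapped too, and RAET1L at 1.97 ± 0.0415 lay below every CRNN library. SIRLNT at 1.34 ± 0.192 and MS4A2 at 1.32 ± 0.187 were indistinguishable within their spread. Below them were THAP12P8 at 0.726 ± 0.163, PDC at 0.654 ± 0.173 and PIK3C2G at 0.467 ± 0.319, whose libraries overlapped, and SCEL at 0.256 ± 0.0543, which overlapped BTLA. The PIK3C2G libraries, from 0.12 to 0.748, also spanned all those of SCEL and BTLA. All 13 were below the median tested gene, which had 20 CPM in OSK, and 9.73% of tested genes lay below PDC.

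**Figure D3:**
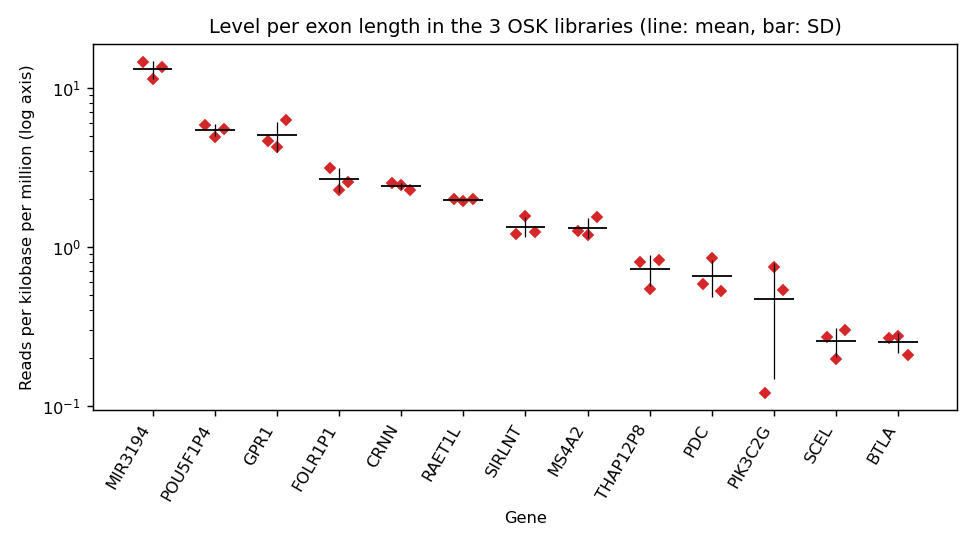
Level of each of the 13 genes in the 3 OSK libraries (points), as CPM per kilobase of annotated exon on a log axis, with the mean (horizontal line) and SD (vertical line). The spread is narrowest for RAET1L, from 1.93 to 2.01, and widest for PIK3C2G, from 0.12 to 0.748.

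The 13 genes lay on 9 chromosomes, and no pair was closer than the 3.02 Mb between CRNN and POU5F1P4. The genes next to them were compared to ask whether the change extended along the chromosome. The nearest tested gene on each side, with tested genes that overlap, gave 30 genes, and 11 of these were higher in OSK against GFP and 2 lower, 36.7% higher beside 23.1% of all genes tested. Scaled by library totals alone, 9 were higher and 4 lower. Against WT the counts were 11 higher and 2 lower, 36.7% higher beside 22.7% of all genes tested. Against GSTA4 they were 14 and 5, 46.7% higher beside 24.1%. The median log2 fold change of the 30 against GFP was 0.06, beside -0.02 over all genes tested. The 30 genes lay up to 1260 kb away. Of the 26 that did not overlap, 11 lay within 100 kb, and 6 of these (54.5%) were higher and 1 lower against GFP. NFATC2, FLG and ULBP3 had the highest log2 fold changes of the 30 against GFP, and FOLR1 beside FOLR1P1 the lowest, at -1.57. CD200, which encodes a ligand of an inhibitory receptor of myeloid cells and lies next to BTLA, was higher against all 3 groups, by 0.56 against GFP (SE 0.208, adjusted p 0.0323), 1.49 against WT (SE 0.221, adjusted p 1.16e-05) and 2.09 against GSTA4 (SE 0.236, adjusted p 2.45e-07). Its call against GFP was lost with library totals alone (adjusted p 0.0623) and without any 1 of GFP replicates 2 and 3 and OSK replicates 2 and 3, with adjusted p from 0.0609 to 0.154 among these libraries. EEF1B2 and ZDBF2, on either side of GPR1, were higher against all 3 groups, by 0.39 (SE 0.0729, adjusted p 0.000175) and 0.63 (SE 0.09, adjusted p 8.17e-06) against GFP. MRPL16 beside MS4A2 (0.6, SE 0.0897, adjusted p 1.4e-05), MYCBP2 beside SCEL (0.44, SE 0.0577, adjusted p 2.5e-06) and ATG3 on the other side of BTLA (0.3, SE 0.0781, adjusted p 0.00358) were also higher in all 3. S100A6 beyond CRNN was higher against GFP (0.7, adjusted p 3.24e-07) and GSTA4 (0.52, adjusted p 1.36e-05) and was not called against WT (-0.15, adjusted p 0.117). The direction of SFRP1 beyond SIRLNT depended on the group, at -0.59 against GFP (adjusted p 8.89e-08) and 0.65 against GSTA4 (adjusted p 1.78e-08).

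**Figure D4:**
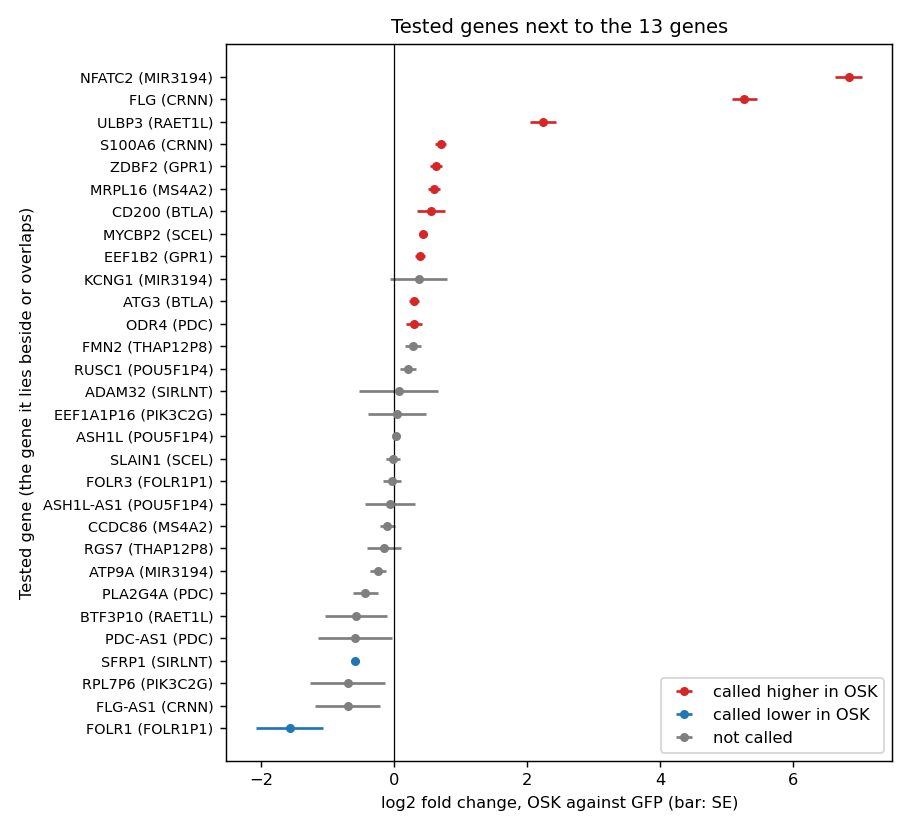
Log2 fold change in OSK against GFP (x axis, bars: SE) of the 30 tested genes that lie next to or overlap the 13 genes, whose names stand in brackets. NFATC2, FLG and ULBP3 stand apart at 6.84, 5.27 and 2.24, and the other calls lie between -1.57 and 0.7.

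RefSeq promoter windows, from 250 bases before to 50 after a start, were found for 8 of the 13 genes, with 9 windows since PDC has 2. These windows were poor in CpG. Their GC content ran from 29.3% to 52.7% with a median of 38.3%, beside a median of 58.7% over all 35116 windows in the table. The ratio of observed to expected CpG was at most 0.577 and exceeded 0.6 in 0 of the 9, beside 48.8% of all windows. Exact matches on either strand were then counted per gene. The SOX motif AACAAAG was found in SCEL and in 1 window of PDC, 2 of 8 genes (25.0%), beside 5.2% of all windows. The letters TATAAA of the TATA box were found in MS4A2, CRNN and PDC, 3 of 8 genes (37.5%), beside 11.5% of all windows. They began 29 and 30 bases before the start in MS4A2 and CRNN. In PDC they began 162 bases before the start in 1 window and 18 bases after it in the other, so not close before it. The octamer ATGCAAAT and the KLF motifs CCACACCC and CCACGCCC were found in 0 of 8, beside 1.77%, 3.28% and 5.02%. With 8 genes these shares are coarse, and leaving out the 50 bases after the start changed none of the 5 shares among the 8 genes. A match here is a run of letters and shows no binding.

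Markers of other cell types were counted to see whether the 13 genes came with a wider programme. Of 25 pluripotency genes other than the 3 factors, 18 had 0 reads in OSK, among them NANOG, ZFP42, DPPA4 and TDGF1, 2 were tested and POU5F1B was the 1 called higher against GFP. Summed, they stood at 13 to 15.4 CPM in OSK and 2.66 to 12.9 elsewhere, the highest of these in GFP, and POU5F1B, whose reads cannot be told apart from those of POU5F1, alone stood at 11.6 CPM ± 1.48 (SD, n = 3) of the sum in OSK. Endothelial genes included 6 tested genes, with 1 higher and 1 lower against GFP. The higher one was APLNR, which had been put forward for its reads in OSK, so its call is no result about the list, and CDH5 and ERG had 0 reads in OSK. Trophoblast genes gave 1 higher and 3 lower of 5 tested, neural genes 2 and 1 of 6, and germ cell genes 0 and 0 of 2. The higher trophoblast gene was HLA-G, which passed the filter on low counts only with its OSK libraries. Its call is therefore no result about the list. Mesendoderm genes gave 1 and 1 of 3, and the higher one was again APLNR. Of all genes tested, 23.1% were called higher and 22.8% lower against GFP, so these counts from few genes say little about a cell type. Of 16 genes of the pigment epithelium itself, 12 were tested and 0 were higher and 10 lower against GFP, but 3 higher and 3 lower against WT and 4 and 5 against GSTA4. Wherever a list had 0 genes higher or 0 lower against GFP, the count was also 0 at an unadjusted p under 0.05 in edgeR and with DESeq2. The part of these other markers in the reads of the 13 genes was not tested.

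At the edges of the limits, PIK3C2G and PDC entered with 10 reads in their lowest OSK library and BTLA with 11. MS4A2, POU5F1P4, CRNN and FOLR1P1 had 3 reads in a library outside OSK, in each case GFP replicate 1. Just outside were BCO1 with 4 reads in GFP replicate 1, KRT16 with 4 in WT replicate 1, and CCL20, LYPD2 and MEGF10 with 7 in their lowest OSK library. In all, 23 genes were outside the limits through 1 library, and GFP replicate 1 was that library for 14 of them. Without it, 27 genes met the limits in place of 13.

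APLNR, the receptor for the peptides apelin and ELABELA in vessels and heart, was among these 14. It had 95, 80 and 124 reads in OSK, 0 in all 6 WT and GSTA4 libraries, and 8, 1 and 0 in GFP, with 6.85 CPM ± 1.83 (SD, n = 3) in OSK. It had been put forward as a marker of the group together with GPR1 and MS4A2 but did not meet the limits. Its ligand genes had few reads, with 0, 1 and 3 for APLN and 0, 4 and 0 for APELA in OSK. Others of the 14 were MYO7B, a myosin of brush borders, with 58, 69 and 96 reads in OSK and 24 in GFP replicate 1, NRCAM, a neural adhesion molecule, with 67, 61 and 56 in OSK and 5, and P2RX3, an ATP-gated channel of sensory neurons, with 40, 61 and 42 in OSK and 8. SOX2 itself was kept out in the same way, by 5 reads. OSK replicate 1 kept out 4 genes, CCL20, CD180, LYPD2 and PLCD4, and CD180 had 1, 10 and 20 reads over the OSK libraries.

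**Figure D5:**
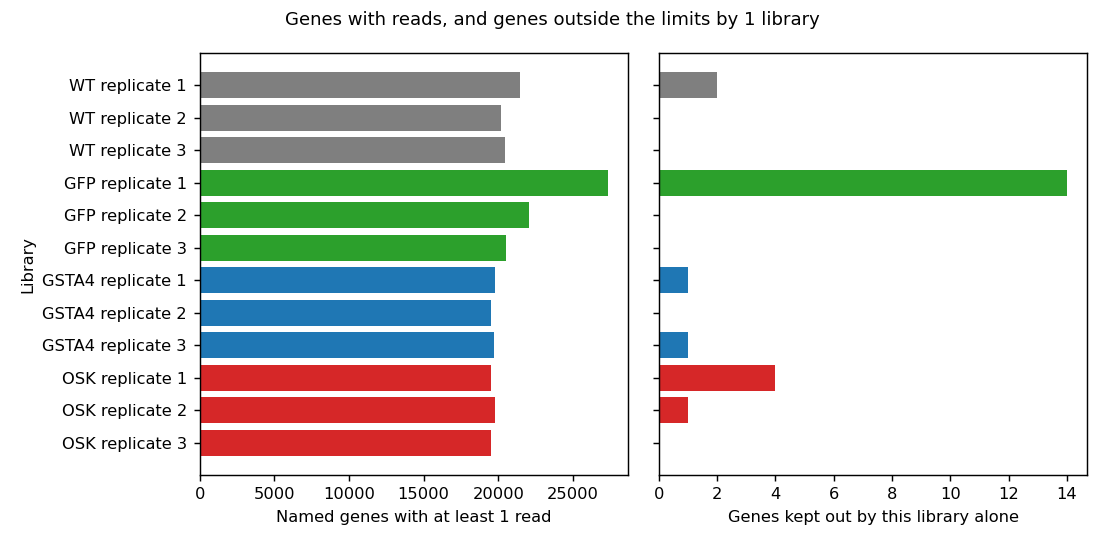
Left, number of named genes with at least 1 read in each of the 12 libraries. Right, number of genes that met all limits except in that library. GFP replicate 1 is highest in both, with 27349 genes with reads and 14 genes kept out.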

How the data were processed

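Poly(A) RNA of 12 ARPE-19 libraries was used, 4 groups of 3, as the labels name them. RNA was extracted with TRIzol and a NEBNext Ultra II kit served for library preparation, per the labels' protocols. The authors deposited whole-number read counts per gene. The submitters' processing notes name STAR 2.7.1a, featureCounts 1.6.2 and the builds GRCh38, hg38, GRCm38 and mm10, with no role for each. The strand setting, the annotation release and the treatment of reads that match several genes are not given in the sources used here. Lines without a symbol, 20014 of 60605, held 0.485% to 0.822% of the reads and stayed out of library sizes and tests.

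From these counts, TMM-scaled CPM and the quasi-likelihood test were computed with edgeR 4.0.16 in R 4.3.3. All 12 libraries entered 1 fit with 4 group means and no covariate, filterByExpr kept 15179 genes, and p-values were adjusted by Benjamini-Hochberg over all of them within each comparison, two-sided. The common biological coefficient of variation was 7.91%. Fold changes are log2 values. Each standard error (SE) is the log2 fold change divided by the square root of its F value. Counting intervals are exact binomial ones at 95%. PCR copies were not separable, so intervals and floors cover counting error only. Tested on simulated counts for OSK against GFP, with 14865 genes, the fit recovered 82% of 200 changed genes with 15 false calls. These are far fewer changed genes than the 23.1% called higher and 22.8% called lower in the data. Recovery at such shares was not tested.

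Positions, exon lengths and transcript likeness came from GENCODE 29 (GRCh38), which holds all 13 genes and 15129 of the 15179 tested, with BLAST 2.17.0 for identity. Promoter and microRNA sequences came from RefSeq tables on GRCh38.p14. Same-numbered libraries of different groups did not deviate together (correlations from -0.0193 to 0.106), so replicate numbers were not used as a block.

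The 13 genes and the gene lists were chosen with earlier results of these data known, and the lists of relatives were written after the 13 were known. Genes named outside the 13 were the factors, the partners of APLNR, GPR1 and MS4A2, up to 4 genes per list with the lowest adjusted p against GFP, and, after their values were seen, neighbours, relatives and genes just outside the limits. Alternatives were other limits, other scalings, filters, DESeq2 1.42.0, a replicate block, the 6 libraries compared alone, and each library left out.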

Additional observations from a re-analysis of the deposited data

Results flagged for a closer look

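Lines that the condition on names set aside also met the read limits. They lie outside the 13 genes and had signal in OSK above the level of the other groups. A long non-coding RNA without a symbol had 275 reads summed over the 3 OSK libraries (104, 87 and 84) and at most 1 in any other library. LINC02582 had 203 (56, 61 and 86) and 0 in all others. LINC02542 had 72 in OSK and up to 3 elsewhere, and LINC00972 had 36 and up to 1. A further long non-coding RNA without a symbol had 53 in OSK (11, 22 and 20) and 1 to 3 in each of the 9 other libraries, close to the limit.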

How the results depend on the processing

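How many genes met the limits depended on the limits. With 0 reads allowed elsewhere 1 gene remained, MIR3194, and with 5 allowed there were 23. With 5 reads asked in each OSK library there were 26, with 20 there were 7, and with limits scaled to the median library total 8. Protein-coding genes alone gave 8. Keeping LINC and -AS1 names gave 16, and leaving out copies of at least 95% identity, an alternative chosen after the data were seen, gave 11. Leaving out each library in turn gave 13 to 27, and 27 only without GFP replicate 1.

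The number of genes called in OSK ran from 6188 to 7569 against GFP, 6017 to 7052 against WT and 6452 to 7727 against GSTA4 when each library was left out. The replicate block gave 7269, 7154 and 7476 calls, against 6962, 6890 and 7262 without it. Of 39 named genes outside the 13, the direction reversed only with another comparison group: RARRES2 at -0.46 (adjusted p 0.0294) and S100A6 at -0.15 (0.117, not called) against WT, and PPL at 0.58, SFRP1 at 0.65 and TP63 at 0.19 (0.867, not called) against GSTA4. A level near 1 CPM rests on 10 to 20 reads per library.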
